A study of Homo sapiens with 2 samples.

Results

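The miR-23/24/27 miRNAs were examined in small RNA libraries from pulldowns of the lncRNA UCA1. They are the guide strands of 2 related gene clusters, miR-23a/27a/24-2 and miR-23b/27b/24-1, and were taken by name as hsa-miR-23a-3p, hsa-miR-23b-3p, hsa-miR-24-3p, hsa-miR-27a-3p and hsa-miR-27b-3p, 5 of the 2588 mature miRNA names listed for each library. Both cell populations came from MDA231 (MDA-MB-231), a human line of basal, invasive breast cancer. In MDA231-UCA1-MS2 cells UCA1 carried MS2 hairpins, and MBP-MCP, a maltose-binding domain fused to the MS2 coat protein, held it from the lysate to amylose resin over 5 h, after which bound RNA was released by 20 mM maltose. MDA231-Con cells went through the same steps as the control, and the study's list of associated miRNAs names the comparison UCA1-MS2 over MS2, with no further account of the control construct in the sources used here. Each eluate, the UCA1 eluate (UCA1-MS2 pulldown) and the control eluate (control pulldown), gave 1 library, so the spread between replicate pulldowns is unknown and all intervals below cover counting error only.

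Each cluster is transcribed as a single primary RNA that Drosha and Dicer cut into 3 hairpins and then into short duplexes, of which one strand, the guide, is retained by Argonaute. The guide pairs with its targets mainly through its seed, bases 2 to 8 from the 5′ end. miR-24-3p is a known repressor of cell cycle genes such as MYC, and miR-27a-3p and miR-27b-3p of the transcription factor FOXO1. UCA1 is studied as a competing RNA that holds miRNAs, and the pulldown asked which miRNAs came down with it.

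The mature sequences are shown because shared seeds and near identity decide which of these miRNAs can be told apart by sequencing. All 5 were found in RefSeq (GRCh38.p14), as were 135 of the 151 miRNAs that had counts. The seed is in capitals.
miR-23a-3p: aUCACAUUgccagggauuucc
miR-23b-3p: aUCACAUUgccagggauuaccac
miR-24-3p: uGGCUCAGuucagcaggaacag
miR-27a-3p: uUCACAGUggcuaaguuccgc
miR-27b-3p: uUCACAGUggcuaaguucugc
They fall into 3 seed groups, miR-23, miR-24 and miR-27. Positions are counted from 1 at the 5′ end. miR-23a-3p and miR-23b-3p differ by U19A, the base of miR-23a-3p given first, and miR-23b-3p is listed with 23 bases against 21. miR-27a-3p and miR-27b-3p differ by C19U alone. Reads that end before base 19 therefore cannot be assigned to one paralog, and how such reads were counted is not given in the sources used here. One other listed miRNA, miR-23c, had the miR-23 seed and was listed at 0 in both libraries.

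The genes lie on 2 chromosomes. MIR23A (13836587 to 13836659), MIR27A (13836440 to 13836517) and MIR24-2 (13836287 to 13836359) span 373 bases of the minus strand of chromosome 19 (GRCh38.p14), and in GENCODE release 29 each overlaps an exon of the noncoding RNA gene AC020916.1. MIR23B (95085208 to 95085304), MIR27B (95085445 to 95085541) and MIR24-1 (95086021 to 95086088) span 881 bases of the plus strand of chromosome 9 inside the protein-coding gene C9orf3. MIR23B and MIR27B overlap none of its exons, whereas MIR24-1 overlaps 1 annotated exon. miR-24-3p is the same sequence at both loci, so its counts cannot be divided between the clusters.

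The UCA1 eluate held 20037 miRNA counts and the control eluate 72579. The deposited RPM values are scaled to 12405522 and 12912336 reads, and miRNAs made up 0.162% and 0.562% of these library totals. Levels are therefore given both as a share of the miRNA counts and as RPM, since the choice shifted the log2 ratio of every miRNA counted in both libraries by nearly the same amount and the median over 151 miRNAs by -1.80. No count below 10 was listed, so a miRNA listed at 0 may have had up to 9 counts. The 5 miRNAs fixed as markers of MDA-MB-231 (miR-21-5p, miR-100-5p, miR-221-3p, miR-222-3p and miR-29a-3p) were counted in both libraries and made up 31.6% of the miRNA counts in the UCA1 eluate and 45.7% in the control eluate. This sum joined opposite directions. In the UCA1 eluate miR-100-5p (4.74% against 29.03%) and miR-222-3p (0.509% against 0.936%) had lower shares. Higher shares there were those of miR-21-5p (23.98% against 15.14%), miR-221-3p (2.21% against 0.529%) and miR-29a-3p (0.195% against 0.0606%). Marker lists of other cells differed between the libraries too, mainly those of liver and epithelial cells. Of 4 liver markers, 3 were counted in the UCA1 eluate (2.80% of the miRNA counts) and 1 in the control eluate (0.0468%), and of 6 epithelial markers 2 (0.564%) and 1 (0.0289%), with miR-200c-3p, miR-141-3p, miR-429 and miR-205-5p listed at 0 in both. Among 4 erythroid markers, 1 was counted in each library (0.105% and 0.0744%), with miR-451a at 0. Among 4 muscle markers, 1 (10 counts, 0.0499%) was counted in the UCA1 eluate and none in the control eluate. The part of these differences in the results below was not tested. In a pulldown from a pooled lysate, fewer cells that hold a miRNA and less of it per cell cannot be told apart.

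Together the 5 guide strands had a higher share of the miRNA counts in the UCA1 eluate and a lower RPM. They had 338 counts in the UCA1 eluate, 1.69% of the miRNA counts (95% Wilson interval 1.52 to 1.87%), and 511 in the control eluate, 0.704% (0.646 to 0.768%). Their share was 2.40-fold higher in the UCA1 eluate (95% counting interval 2.09 to 2.75). In RPM they had 27.2 in the UCA1 eluate and 39.6 in the control eluate, a level 1.45-fold lower (1.27 to 1.67). The direction of the difference thus turned with the total used for scaling.

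miR-27a-3p, the most counted member in the UCA1 eluate, had 117 counts there and 112 in the control eluate. Its share was 0.584% (0.487 to 0.699%) against 0.154% (0.128 to 0.186%), 3.78-fold higher (2.92 to 4.90). In RPM it had 9.43 and 8.67, a ratio of 1.09 (0.839 to 1.41), so no difference was detectable on that scale. miR-27b-3p, its paralog from chromosome 9, had 100 counts in the UCA1 eluate and 193 in the control eluate, where it was the most counted of the 5. Its share was 0.499% (0.411 to 0.607%) against 0.266% (0.231 to 0.306%), 1.88-fold higher (1.47 to 2.39), and its RPM was 8.06 against 14.9, 1.85-fold lower (1.46 to 2.36).

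miR-24-3p, the product of both clusters, had 78 counts in the UCA1 eluate and 89 in the control eluate. This was 0.389% (0.312 to 0.486%) against 0.123% (0.0997 to 0.151%) of the miRNA counts, 3.17-fold higher (2.34 to 4.30), and 6.29 against 6.89 RPM, a ratio of 0.912 (0.673 to 1.24). On both scales its ratio between the libraries lay close to that of miR-27a-3p, though its level in the UCA1 eluate was lower.

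The miR-23 paralogs had the fewest counts. miR-23a-3p had 30 in the UCA1 eluate and 49 in the control eluate, 0.150% (0.105 to 0.214%) against 0.0675% (0.0511 to 0.0892%) of the miRNA counts, 2.22-fold higher (1.41 to 3.49). Its RPM was 2.42 against 3.79, a ratio of 0.637 (0.405 to 1.0). miR-23b-3p had 13 counts in the UCA1 eluate and 68 in the control eluate. It alone of the 5 had a lower share in the UCA1 eluate, 0.0649% (0.0379 to 0.111%) against 0.0937% (0.0739 to 0.119%), a ratio of 0.692 whose interval reached from 0.383 to 1.25. In RPM it had 1.05 against 5.27 and was 5.03-fold lower (2.78 to 9.10), and no other member differed by a factor over 2 on that scale.

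**Figure D1:**
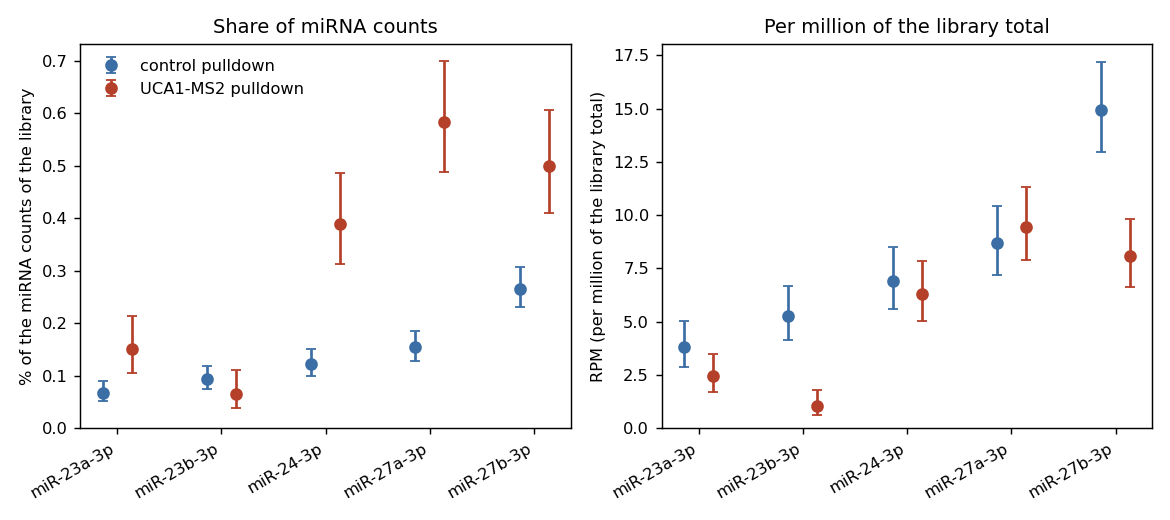
Levels of the 5 guide strands in the control pulldown (blue) and the UCA1-MS2 pulldown (red), 1 library each, as percent of the miRNA counts (left) and RPM (right); bars are 95% Wilson intervals from counting. On the left miR-23b-3p alone has no higher point in the UCA1-MS2 pulldown, and on the right miR-27a-3p alone has a higher point there (9.43 against 8.67 RPM).

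The order of the levels changed between the libraries. In the UCA1 eluate it ran miR-27a-3p, miR-27b-3p, miR-24-3p, miR-23a-3p and miR-23b-3p, and the intervals of neighbours overlapped except between miR-24-3p and miR-23a-3p. In the control eluate it ran miR-27b-3p, miR-27a-3p, miR-24-3p, miR-23b-3p and miR-23a-3p, where the intervals of neighbours overlapped except between miR-27b-3p and miR-27a-3p. Among all miRNAs with counts, miR-27a-3p ranked 24 in the UCA1 eluate and 47 in the control eluate, and miR-24-3p ranked 30 and 53. miR-27b-3p ranked 27 and 33, miR-23a-3p 54 and 72, and miR-23b-3p moved the other way, from 59 in the control eluate to 78 in the UCA1 eluate.

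The members were then read against all miRNAs. By share, 3 of the 5 (miR-23a-3p, miR-24-3p and miR-27a-3p) were at least 2-fold higher in the UCA1 eluate, 0 of 5 were at least 2-fold lower and 2 lay between. Of 151 miRNAs with at least 10 counts, 27.8% were at least 2-fold higher and 44.4% at least 2-fold lower. Many of the lower ones were listed at 0 in the UCA1 eluate, and of the 90 miRNAs counted in both libraries, as all 5 members were, 33.3% were higher and 20.0% lower. The median log2 ratio of the 5 was 1.14, beside -0.56 over the 151 and 0.38 over the 90. By RPM, 0 of 5 were at least 2-fold higher and 1, miR-23b-3p, was at least 2-fold lower, against 11.9% and 70.2% of the 151 and 6.67% and 63.3% of the 90. The median log2 ratio of the 5 was then -0.64, beside -2.35 over the 151 and -1.41 over the 90.

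**Figure D2:**
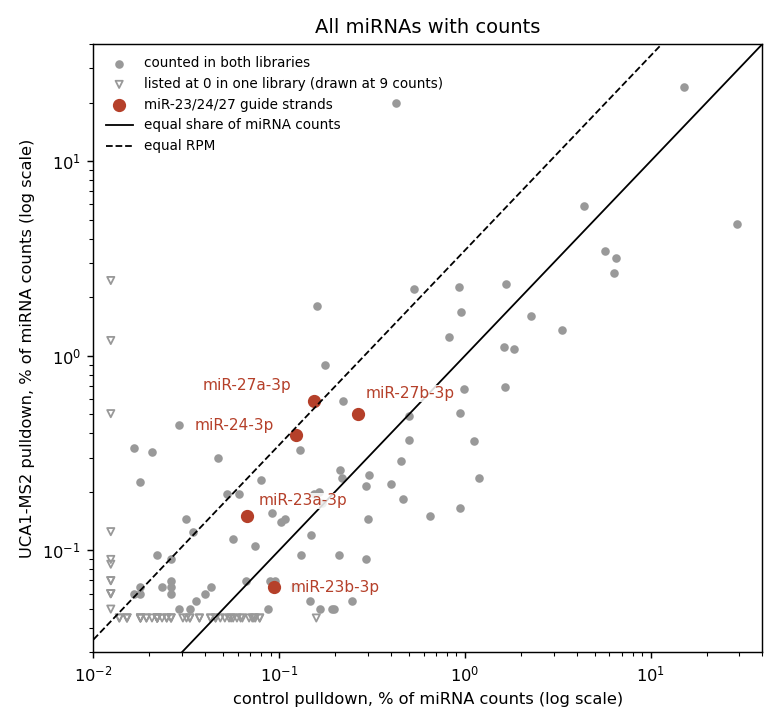
Share of the miRNA counts in the control pulldown (x axis) and the UCA1-MS2 pulldown (y axis), both log scales, for the 151 miRNAs with counts; triangles mark miRNAs listed at 0 in one library, drawn at 9 counts. The solid line is equal share and the dashed line equal RPM; 4 of the 5 guide strands (red) lie above the solid line, and miR-24-3p and miR-27a-3p lie nearest to the dashed one.

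Fisher's exact test (two-sided), run on reads and adjusted by Benjamini-Hochberg over the 151 miRNAs, compares these 2 libraries and not the conditions. Most of the 151 miRNAs had an adjusted p under 0.05 in this test, so passing that level does not set a member apart. By share, its adjusted p was 1.0e-21 for miR-27a-3p, 4.8e-12 for miR-24-3p, 2.1e-06 for miR-27b-3p, 0.0016 for miR-23a-3p and 0.30 for miR-23b-3p. When a coefficient of variation of 0.4 between pulldowns was assumed instead in edgeR's exact test, the lowest adjusted p of the 5 was 0.079, for miR-27a-3p, and the others ran from 0.12 to 0.68.

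The ratio of 2 miRNAs within a library does not depend on the total used for scaling, and the paralogs were compared in this way. miR-23a-3p had 2.31 counts for each count of miR-23b-3p in the UCA1 eluate and 0.721 in the control eluate. This ratio was 3.20-fold higher in the UCA1 eluate (95% counting interval 1.52 to 6.76). miR-27a-3p had 1.17 counts for each count of miR-27b-3p in the UCA1 eluate and 0.580 in the control eluate, a 2.02-fold higher ratio (1.41 to 2.87). In both pairs the balance lay further towards the paralog from chromosome 19 in the UCA1 eluate. Summed, the paralogs from chromosome 19 had 147 counts and those from chromosome 9 had 113 in the UCA1 eluate, against 161 and 261 in the control eluate. That ratio was 2.11-fold higher (1.54 to 2.89) in the UCA1 eluate. Because the paralogs differ at base 19, how reads were matched could alter each of these ratios, and this was not tested.

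Cluster mates differed in how far they kept their ratio. Of the 10 pairs among the 5 members, 7 had a ratio whose interval for the difference between libraries excluded 1. The 4 pairs with miR-23b-3p were all among them. The 10 pairs rest on the counts of 5 miRNAs and are not independent. Such intervals were common between these libraries, since most lettered pairs of other families, described below, also had one that excluded 1. This count therefore does not set the members apart. Of the 6 pairs encoded in one cluster, 4 had an interval that excluded 1, which were the 3 on chromosome 9 and 1 of the 3 on chromosome 19. The pairs with miR-24-3p draw on the same counts for both chromosomes, so this split does not describe either cluster alone. Only the pairs of a miR-23 with a miR-27 belong to a single cluster, and both of their intervals excluded 1. For miR-23b-3p over miR-27b-3p, encoded side by side on chromosome 9, the ratio was 0.130 in the UCA1 eluate and 0.352 in the control eluate, a factor of 0.369 (0.194 to 0.700). For miR-23a-3p over miR-27a-3p on chromosome 19, it was 0.256 against 0.438, a factor of 0.586 (0.347 to 0.989). miR-24-3p and miR-27a-3p kept the closest balance of the chromosome 19 mates, 0.667 against 0.795, a factor of 0.839 (0.563 to 1.25). For miR-23a-3p over miR-24-3p the ratio was 0.385 against 0.551, a factor of 0.699 whose interval (0.404 to 1.21) also included 1. As shares of the 5 members, miR-27a-3p made up 34.6% in the UCA1 eluate and 21.9% in the control eluate, and miR-23b-3p 3.85% and 13.3%.

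Other lettered paralogs shifted as far. Among 32 other pairs of names that differ in the letter alone and were counted in both libraries, from 7 families, the size of the log2 ratio of ratios had a median of 0.99 and ran from 0.02 to 4.53. It was 1.68 for miR-23a-3p over miR-23b-3p, which 7 of the 32 matched or passed, and 1.01 for miR-27a-3p over miR-27b-3p, which 16 did. Many of the 32 pairs share a miRNA, most of them in the let-7 and miR-30 families, so they are not independent.

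The passenger strands, the other arms of the same hairpins, had counts for the miR-27 hairpins alone. miR-23a-5p, miR-23b-5p, miR-24-1-5p and miR-24-2-5p were listed at 0 in both libraries. miR-27a-5p had 40 counts in the UCA1 eluate and 119 in the control eluate, where it passed its guide strand (112). It made up 25.5% of the counts of both arms in the UCA1 eluate (95% Wilson interval 19.3 to 32.8%) and 51.5% in the control eluate (45.1 to 57.9%), so that its ratio to the guide was 3.11-fold lower in the UCA1 eluate (2.0 to 4.84). miR-27b-5p was listed at 0 in the UCA1 eluate and had 54 counts in the control eluate, 21.9% of both arms (17.2 to 27.4%). With 9 counts in place of its 0 it would make up 8.26% in the UCA1 eluate, a ratio to the guide at least 3.11-fold lower. As a share of all miRNA counts, miR-27a-5p was nearly level, 0.200% against 0.164%, a ratio of 1.22 (0.851 to 1.74), and in RPM it was 2.86-fold lower (2.0 to 4.09).

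The minor arm, the one with fewer counts over both libraries, could be followed in 10 other hairpins that had both arms counted in one library or more and at least 10 counts over both arms in each library. Its share was lower in the UCA1 eluate in 8 of them, but in 6 of the 10 it was listed at 0 in the UCA1 eluate, and with 9 counts in place of each 0 it was lower in 3. These 3 were let-7d, miR-221 and miR-30a. For miR-30a the minor arm made up 6.0% against 28.2%, whereas for miR-99b it was higher in the UCA1 eluate, 23% against 7.02%.

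**Figure D3:**
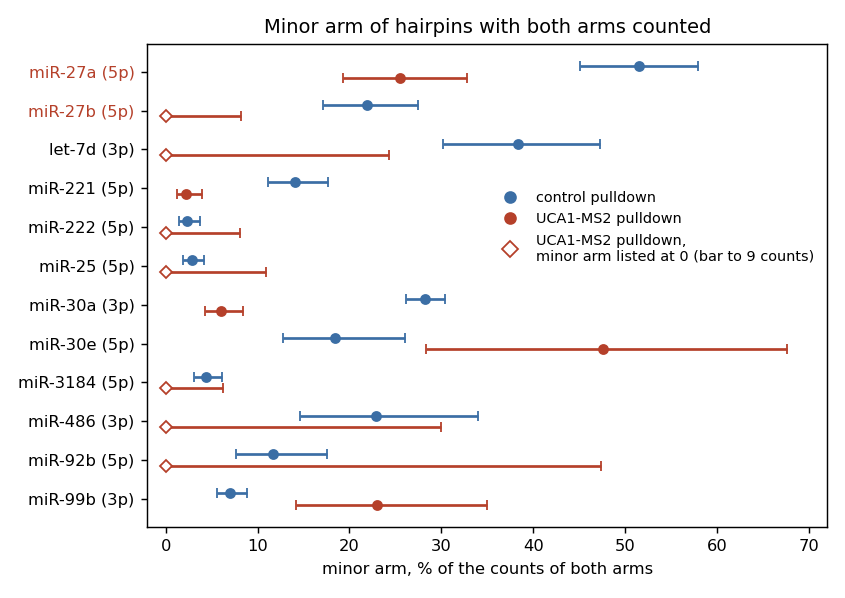
Minor arm as percent of the counts of both arms for the 12 hairpins with both arms counted, in the control pulldown (blue) and the UCA1-MS2 pulldown (red), with 95% Wilson intervals; open diamonds mark a minor arm listed at 0, with a bar up to 9 counts. Both miR-27 hairpins (red names) have a lower 5p share in the UCA1-MS2 pulldown, 25.5% against 51.5% for miR-27a and 0% against 21.9% for miR-27b.

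A miRNA annotated on the opposite strand overlaps miR-24-3p and was counted in both libraries. MIR3074 lies on the minus strand of chromosome 9 from 95086014 to 95086094, across MIR24-1, and 20 bases of its 5p arm are the reverse complement of miR-24-3p. These 20 bases are in capitals.
miR-24-3p: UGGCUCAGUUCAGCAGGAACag
miR-3074-5p: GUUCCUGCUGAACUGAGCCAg
miR-3074-5p had 39 counts in the UCA1 eluate and 38 in the control eluate, and miR-3074-3p was listed at 0 in both. miR-24-3p had 2.0 counts for each count of miR-3074-5p in the UCA1 eluate and 2.34 in the control eluate, a factor of 0.854 (0.497 to 1.47), so the 2 names kept their ratio within counting error. Whether strand was used in counting is not given in the sources used here, and reads of one could have been counted for the other. Of 5 pairs of names on opposite strands of one locus that had counts, 3 had counts under both names. One was miR-24-3p with miR-3074-5p. Another was miR-122-5p with miR-3591-3p, at 488 and 240 counts in the UCA1 eluate and both at 0 in the control eluate. For miR-423-3p with miR-3184-5p the counts were 58 and 0 in the UCA1 eluate and 327 and 33 in the control eluate. In the other 2 the counts stood under a single name, miR-103b and not miR-103a-3p, and miR-3184-3p (135 and 720 counts) and not miR-423-5p. With miR-3074-5p added, miR-24-3p was 3.34-fold higher by share (2.60 to 4.29) and had a ratio of 0.959 in RPM (0.746 to 1.23).

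For each member, the other miRNA nearest to it in log2 share over both libraries is given as a description of levels. For miR-23b-3p this was miR-125b-1-3p, with 13 and 67 counts in the UCA1 and control eluates (distance 0.021 on the log2 scale). For miR-24-3p it was miR-4448 with 66 and 94 counts (0.25), for miR-23a-3p miR-29a-3p with 39 and 44 (0.41), and for both miR-27 members miR-182-5p with 118 and 160 (0.51 from miR-27a-3p and 0.36 from miR-27b-3p). With 2 libraries, such closeness rests on 2 values per miRNA.

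Other sets of guide strands differed from the cluster in share and in RPM. miR-221-3p and miR-222-3p, a cluster abundant in basal breast cancer cells, summed to 2.72% of the miRNA counts in the UCA1 eluate and 1.46% in the control eluate, 1.86-fold higher (1.68 to 2.06), against 2.40-fold for the 5 members. This sum joined opposite directions by share, since miR-221-3p had 443 counts against 384 (log2 ratio 2.06, higher than that of each of the 5 members) and miR-222-3p had 102 against 679 (-0.88). The let-7 guide strands with miR-98-5p, 9 names in all, summed to 13.5% and 18.9%, a ratio of 0.715 (0.688 to 0.742), and the 5 miR-30 guide strands to 3.85% and 4.04%, a ratio of 0.953 (0.882 to 1.03). The let-7 sum joined opposite directions too, such as log2 ratios of -1.25 for let-7a-5p and 0.61 for let-7g-5p. So did the miR-30 sum, with -0.75 for miR-30d-5p and 0.50 for miR-30a-5p, and that of the 5 members, with miR-23b-3p lower. The interval of the 5 members lay above those of these 3 sets, but such intervals cover counting error in these libraries only. In RPM the miR-221/222 sum was 43.9 against 82.3, a ratio of 0.534, that of let-7 0.205 and that of miR-30 0.274, against 0.688 (0.600 to 0.790) for the 5 members.

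The seeds were looked up in UCA1, as a description of sequence. GENCODE release 29 annotates 36 isoforms of UCA1 on chromosome 19, and 1 isoform, of 1444 bases, was searched on its own strand for the reverse complements of the seeds, AATGTGA for miR-23, CTGAGCC for miR-24 and ACTGTGA for miR-27. None of the 3 was found in this isoform, and CTGAGCC was found in 2 of the 36 isoforms. The shorter reverse complements of bases 2 to 7 were not found in the isoform of 1444 bases either. ATGTGA of miR-23 was found in 6 of the 36 isoforms, TGAGCC of miR-24 in 3 and CTGTGA of miR-27 in 11. Among 2281 listed miRNAs with a sequence, 11.5% had a match of bases 2 to 8 in this isoform and 33.1% a match of bases 2 to 7. The sequence of the UCA1 insert expressed in these cells was not used.

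**Figure D4:**
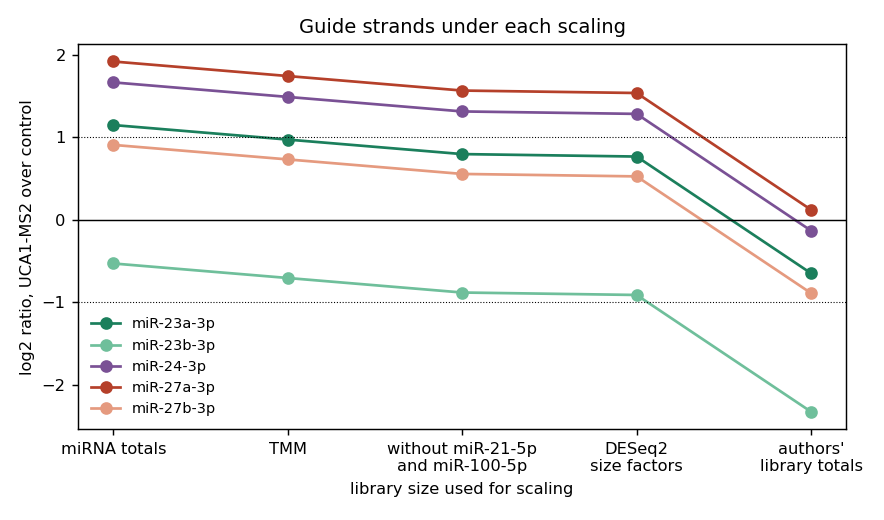
Log2 ratio (UCA1-MS2 over control) for each guide strand under 5 library sizes; dotted lines mark a 2-fold difference. The vertical distances between the miRNAs are the same under each library size, while miR-23a-3p, miR-24-3p and miR-27b-3p fall from above 0 to -0.65, -0.13 and -0.89 with the authors' library totals.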

How the data were processed

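Small RNA libraries of 1 UCA1-MS2 pulldown and 1 control pulldown were analysed, grouped by the cell line in the labels. The authors deposited counts of reads for each mature miRNA name, and RPM values, the same counts scaled to 1 library total. bcl2fastq and BWA are named in the submitters' processing notes; versions, genome build, miRNA annotation, mismatches and strand use are not given in the sources used here. A table of the series that holds the same RPM and the authors' own fold changes and p-values was not used. The members and lists were chosen with earlier results of these data known.

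Shares were taken of the summed miRNA counts (20037 and 72579) with 95% Wilson intervals, and ratios with 95% log-scale intervals from counting; without molecular identifiers, reads are not independent molecules, so these cover counting error only. For 2-fold calls over miRNAs with at least 10 counts, 0.5 counts were added in proportion to library size; values of members have no pseudocount except in their median. With 1 library per group, no dispersion could be estimated for edgeR's quasi-likelihood model. Named miRNAs were the members, their other arms, same-seed and opposite-strand miRNAs, the nearest miRNA of each, and fixed comparison and marker lists; the hairpins, opposite-strand pairs and paralogs of other loci were found by rule. Arm shares of other hairpins were added after seeing the data. Alternatives were other library sizes, pseudocounts, count minimums and call rules. The ratios and tests were checked on counts simulated with counting error alone, which cannot show the effect of spread between pulldowns. Tools were Python 3.11.15, scipy 1.17.1, pandas 2.3.3, R 4.3.3, edgeR 4.0.16 and DESeq2 1.42.0.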

Additional observations from a re-analysis of the deposited data

How the results depend on the processing

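No paired analysis was possible because the UCA1 and control eluates gave 1 library each, and no replicate could be left out. With the authors' library totals in place of the miRNA totals, the log2 ratio of the 5 members summed turned from 1.26 to -0.54, that of miR-23a-3p from 1.15 to -0.65 and that of miR-24-3p from 1.67 to -0.13. For the sum it was 0.88 with DESeq2's size factors and 0.91 with miR-21-5p and miR-100-5p taken out of the totals. These changes follow from the library sizes, which shifted the median log2 ratio by -1.80, -0.38 and -0.35, and by -0.18 with TMM; ratios between members do not depend on them. Over all 151 miRNAs, 42 were at least 2-fold higher and 67 lower (38.5% of calls higher). There were 18 and 106 with the authors' totals (14.5% higher), 54 and 19 with 9 counts for each listed 0 (74.0%), 11 and 82 with both (11.8%), and 30 and 18 among those counted in both libraries without a pseudocount (62.5%). A minimum of 50 counts gave 24 and 25 (49.0%), a 4-fold threshold 23 and 54, and edgeR's exact test at an assumed coefficient of variation of 0.4 gave 20 and 22. With paralogs summed, the log2 ratio was 0.41 for miR-23 and 1.37 for miR-27. Adding 0.5 or 1 counts changed no direction among the members. The lower share of the minor arm was seen in 8 of 10 other hairpins, in 3 with 9 counts for each listed 0 and in 5 of 6 with at least 50 counts in each library (2 of 6 with 9 counts for each listed 0). Over miRNAs with counts, the share with a seed match in UCA1 was 7.41% for bases 2 to 8 and 24.4% for bases 2 to 7. Counts of 13 to 117 for the members in the UCA1 eluate limit what could be told apart. Settings for arms and seed backgrounds were chosen after seeing the data.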
